A study of Homo sapiens with 2 samples.

Results

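The eIF4A1 peaks that fall in the exon class of the authors' annotation are described here. They are the peaks whose annotation text begins with the word exon, and they number 384 of 1919 annotated peaks (exact binomial 95% interval of the share 18.2 to 21.9%). DU145, an established line of human prostate cancer cells, was lysed for its cytoplasm, and RNA was pulled down from paired parts of the lysate with either an eIF4A1 antibody or nonspecific IgG, both from rabbit. Each pulldown gave 1 library. No treatment or genotype is named for either group, and both libraries carry the set number 2. The peaks were called in the eIF4A1 library over a control whose identity the sources used here do not give. With 1 library per antibody no value has a replicate error, no test was made, and the intervals given with shares cover counting error only.

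eIF4A1 is the RNA helicase of the cap-binding complex eIF4F. It unwinds structure in the leader of an mRNA so that the small ribosomal subunit can load and scan toward the start codon. The exon class is set by position alone: in this annotation scheme a peak close to a transcript start is called promoter, and UTRs are listed as classes of their own. Every exon-class summit lay at least 3033 bases from the nearest annotated transcript start (median distance 9954, largest 256254). For coding transcripts the class therefore holds mainly peaks in the body of the mRNA, and for noncoding transcripts and pseudogenes it holds any exon away from a start. The coding or UTR position within an exon was not analysed here, since no exon coordinates were used.

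The sequence under a peak is shown for the only exon-class peak that lies wholly inside a sequence window of the RefSeq table used. It is the peak in exon 27 of 43 of MYH10, the heavy chain of nonmuscle myosin IIB, whose coiled-coil tail assembles into filaments. The stretch is given on the MYH10 strand (GRCh38.p14, chr17:8506343-8506453, minus strand), with the 91 bases of the called peak in capitals and 10 bases on each side in lower case.
MYH10 exon 27: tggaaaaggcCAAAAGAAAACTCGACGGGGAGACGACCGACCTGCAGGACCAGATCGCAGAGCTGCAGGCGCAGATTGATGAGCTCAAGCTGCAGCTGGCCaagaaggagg
Of these 91 bases, 54 are G or C (59.3%). The peak had 10 eIF4A1 reads at its summit and a fold over control of 3.99, over a recovered background of 1.76. Its −log10 q was 1.31, below the exon-class median of 3.15. The window belongs to LOC102724262, a long noncoding RNA gene on the opposite strand within MYH10. Peaks carry no strand in the files, and reads of these 2 genes therefore cannot be told apart. The other MYH10 peak, in exon 30, rested on 3 reads with a fold of 3.90.

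Most exon-class peaks were short and rested on few reads. Fold is the authors' ratio of reads at the summit to control, and the read number at a summit was recovered from the fold and p that the authors deposited. The lowest fold was 2.93, the median 3.99 and the highest 8.51, with quartiles of 3.91 and 4.91. Over all annotated peaks the median was also 3.99 and the highest 13.3. In the exon class 63 peaks rested on 2 reads, 163 on 3 and 70 on 4, and the highest number was 15. Width had a median of 27.5 bases, with 151 peaks at exactly 20 bases and the widest at 298. The fold follows the read number closely where the background is near 0, and a peak of 4 reads could reach at most 4.99 in this class.

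A fold of at least 5 was reached by 74 exon-class peaks (19.3%, interval 15.4 to 23.6), against a background of 22.5% over all annotated peaks. At least 5 reads stood at 88 exon-class summits (22.9%, interval 18.8 to 27.5), against 26.7% of all peaks, and a −log10 q of at least 5 was found at 104 (27.1%, interval 22.7 to 31.8), against 26.3%. By these measures the exon class was near the background. For fold, the 3' UTR class had 26.2% (interval 20.8 to 32.2), and its interval overlapped that of the exon class. The intron class had 5.26% (interval 1.73 to 11.9), and its interval did not. Overlap of 2 intervals does not show that the shares are alike, and the differences were not tested. The class of promoter peaks between 1 and 2 kb from a start lay above the exon class for fold and for reads. Its shares were 34.4% (interval 27.7 to 41.6) for fold and 40.6% (interval 33.6 to 47.9) for at least 5 reads. Fold follows the read number closely at low background, so these measures are not independent. For a −log10 q of at least 5 the same promoter class had 22.4% (interval 16.7 to 29.0), below the 27.1% of the exon class, with overlapping intervals. These peaks come from 1 library, so the intervals describe that library and not the condition.

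**Figure D1:**
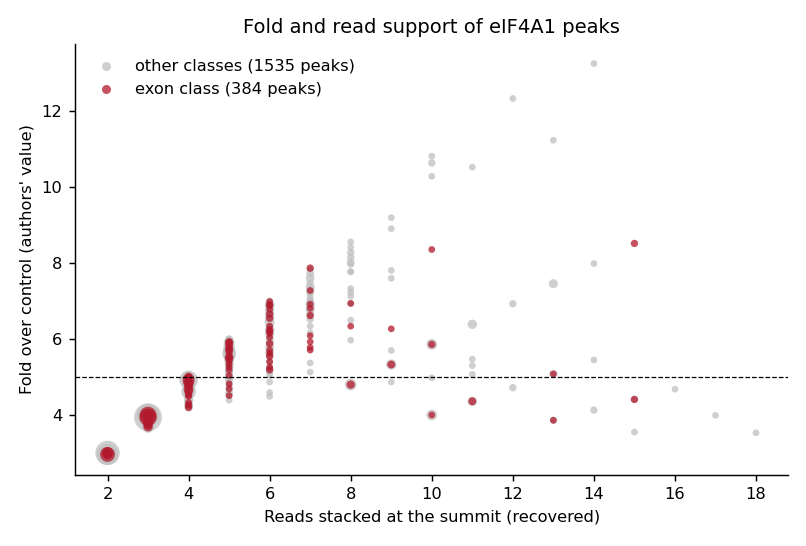
Fold over control (y axis, authors' value) against reads recovered at the summit (x axis) for 384 exon-class peaks (red) and 1535 peaks of the other classes (grey), with dot area growing with the number of peaks at a point and a dashed line at a fold of 5. Most exon-class peaks sit at 2 to 4 reads, and the highest fold in the class is 8.51 at 15 reads.

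**Figure D2:**
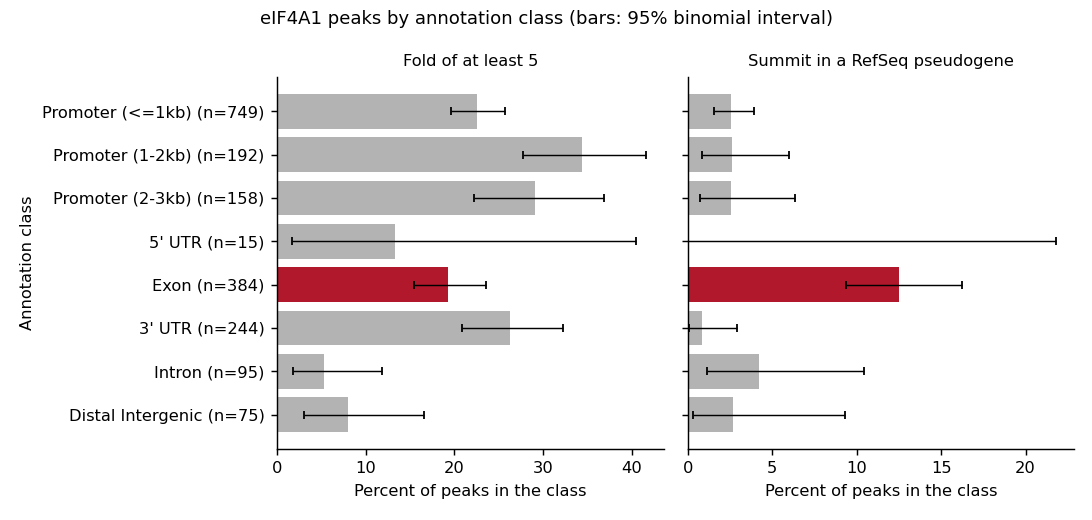
Percent of peaks in each annotation class with a fold of at least 5 (left) and with the summit in a RefSeq pseudogene (right), with the number of peaks per class and exact 95% binomial intervals as error bars. The downstream class, with 7 peaks, is not drawn. The exon class (red) has 19.3% and 12.5%. By its definition it takes any pseudogene exon away from a start, so the right panel does not compare like classes.

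For some peaks the gene that holds the exon was not the gene that the table lists. The annotation text of each exon-class peak gives the transcript that owns the exon and, for 320 of 384 peaks, its gene ID, while the gene column lists the gene with the nearest transcript start. The exon's own gene IDs named 293 genes, of which 279 were protein-coding, 8 were long noncoding RNAs and 6 were transcribed pseudogenes. The summit lay inside the RefSeq span of the exon's gene in 318 of 320 peaks (99.4%, interval 97.8 to 99.9), and inside the listed gene in 268 of the same 320 (83.8%, interval 79.2 to 87.6). Of the 64 peaks without a gene ID, 13 had the summit inside the listed gene, which gives 281 of all 384 (73.2%, interval 68.4 to 77.5). Both IDs were the same gene in 268 peaks too, although in 239 of these the nearest start belonged to another transcript of it.

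In the other 52 peaks the exon belonged to a different gene from the listed one, and 51 of these summits lay inside the exon's gene. The IDI1 summit lay inside the listed gene, IDI2-AS1, as well, and the PKD1P1 summit inside neither. Their folds ran from 2.93 to 8.35 with a median of 3.99. The listed name was a microRNA gene in 7 of them. The peak in exon 5 of 22 of LPIN1, a phosphatidate phosphatase, was listed under MIR548S (fold 4.83, 4 reads). The last exon of ABL1, a tyrosine kinase, was listed under QRFP (8.35, 10 reads). Exon 2 of RHOA, the small GTPase of actin stress fibres, was listed under GPX1 (5.51, 5 reads). Exon 5 of ARCN1, the delta subunit of the COPI vesicle coat, was listed under PHLDB1 (6.23), and exon 6 of RAB1A, a GTPase of transport from the ER to the Golgi, under CEP68 (4.35, 11 reads). Genes are named below by the exon's own gene ID.

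The highest folds in the class were found in 2 exons with 15 reads each over a recovered background of 0.880. One was exon 12 of 29 of ACLY (chromosome 17, 41898651 to 41898671), whose product, ATP citrate lyase, makes the cytosolic acetyl-CoA used in lipid synthesis, with a fold of 8.51. The other was a transcript without a gene ID inside the long noncoding RNA LINC03061 (chromosome 13, 109270898 to 109271063), with the same fold. ABL1 followed (chromosome 9, 130885207 to 130885289), and its peak in exon 11 of 11 lies beside a peak in its 3' UTR with a fold of 6.80. Exon 15 of ACLY had a fold of 7.86 on 7 reads, with the lower background of 0.0176. The same values were found at a transcript inside RGPD2 and the pseudogene WBP1P2 (chromosome 2, 87973047 to 87973071).

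Exon 11 of FASN, encoding fatty acid synthase, had a fold of 7.27 on 7 reads (chromosome 17, 82090393 to 82090445). SRGAP2B, a partial copy of the neuronal gene SRGAP2, had 6.98 on 6 reads and the highest −log10 q of the class, 13.5. Its recovered background was only 0.00298. MYL9, a regulatory light chain of myosin, had 6.93 on 8 reads, and the long noncoding RNA OLMALINC 6.91 on 7 reads. The MYL9 summit also lies inside the long noncoding RNA gene DLGAP4-AS1, and without strand the reads of these genes cannot be told apart. ZDHHC8, a palmitoyltransferase, had 6.88 on 6 reads. CIZ1, a nuclear protein of DNA replication, had 6.80, and KIRREL1, a cell adhesion protein of the immunoglobulin superfamily, had 6.77. LATS2, a kinase of the Hippo pathway, had 6.65. IDI1, an isomerase of the mevalonate pathway, had 6.61, and PLIN3, a lipid droplet coat protein, and SCAF1, a protein that binds RNA polymerase II, both had 6.54. Also among the 20 highest were transcripts inside the pseudogenes AKR1B1P1 (6.89) and FDPSP1 (6.61). From ZDHHC8 to SCAF1 each of these peaks rested on 6 or 7 reads, and an order among them is not distinguishable at that depth.

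The most reads stood at 4 peaks with 15 each. Beside ACLY and LINC03061 these were exon 9 of FASN and exon 2 of SREBF2, the transcription factor that switches on cholesterol synthesis genes (chromosome 22, 41867098 to 41867138). The FASN and SREBF2 peaks had a fold of only 4.40, since the recovered background was 2.64 at each. The next in order, at 13 reads, were peaks inside SCDP1 (5.07) and RN7SL4P (3.85). Exon-class peaks with many reads thus included some with a high background, and 8 of 384 had a background of 1 or more.

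Peaks in the same gene were uncommon. Of the 293 genes, 272 had 1 exon-class peak, 16 had 2 and 5 had 3 or more. FASN had 4, in exons 9, 10, 11 and 14 of 43, with folds of 4.40, 5.50, 7.27 and 6.19 in that order. ACLY had 3, in exons 12, 15 and 18 of 29, with folds of 8.51, 7.86 and 5.51. These peaks were the only ones inside ACLY in any class, whereas FASN held 19 further peaks in the promoter class. The promoter class takes peaks near any annotated transcript start. Those 19 lay on both sides of the FASN exon-class peaks (chromosome 17, 82078374 to 82095412). The stretch of FASN from exon 9 to 14 is therefore set in part by the class definition. CIC, a transcriptional repressor, had 2 peaks in exon 2 of 21 (5.85 and 4.67) and 1 in exon 7 (4.79), and 4 further peaks in the promoter class with a fold of up to 12.3. Those 4 peaks (chromosome 19, 42287192 to 42295022) lay downstream of the exon 2 peaks. MYO10, an unconventional myosin of filopodia, had peaks in exons 29, 31 and 34 of 41 with folds of 2.96, 4.89 and 4.75 on 2 to 4 reads. GOLGA3, a golgin of the Golgi membrane, had peaks in exons 8, 10 and 11 of 24 with folds of 2.95, 4.67 and 3.80.

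Genes with 2 exon-class peaks included OGDH and TAF8. In OGDH, a subunit of the oxoglutarate dehydrogenase of the citric acid cycle, the folds were 4.95 and 4.87. TAF8, a subunit of TFIID, had 4.83 and 3.99, and ITM2C, a membrane protein, had 4.78 at both. Further genes with 2 peaks were TNRC6B (4.25 and 2.99), a partner of Argonaute in silencing by microRNAs, HECTD4 and NCOA1 (3.99 and 3.93 each), MYH10, SIPA1L3 (3.97 and 3.93), CAMSAP3 (3.94 and 2.99), which caps microtubule minus ends, ZFTRAF1 (3.93 and 2.95), TIPARP (3.80 and 2.95), LONP2 (2.95 at both) and ZDHHC5 (2.94 and 2.93). In these the read number was 2 to 4 at each peak, apart from the 10 reads of MYH10 exon 27. In TAF8, ITM2C and ZFTRAF1 the 2 peaks were annotated on different transcripts, so their exon numbers are not on 1 scale.

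**Figure D3:**
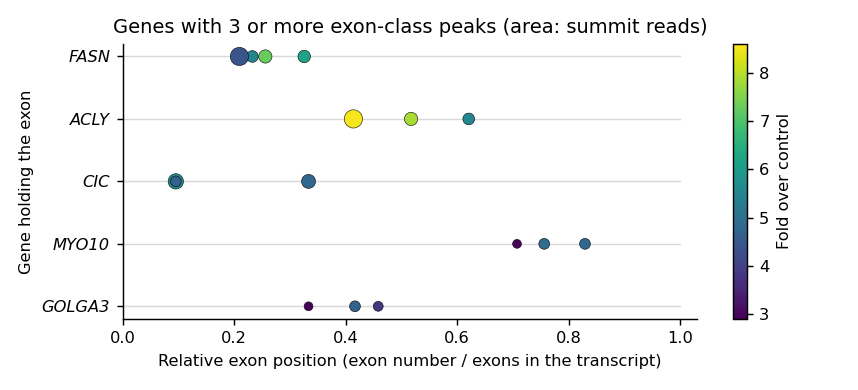
Relative exon position (x axis, exon number over the exons in the transcript) of each exon-class peak in the 5 genes with 3 or more, with colour for fold over control and area for summit reads. The FASN exon-class peaks lie in exons 9 to 14 of 43 and the ACLY peaks in exons 12 to 18 of 29. Peaks of other classes in these genes are not drawn.

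Of the 293 genes, 60 also held a peak of another class inside the gene (20.5%, interval 16.0 to 25.6). The other peak was in the promoter class in 46 genes, the 3' UTR class in 15 and the intron class in 3. The remaining 233 genes had their peaks in the exon class only. For coding genes the share was 58 of 279 (20.8%, interval 16.2 to 26.0), and among 233 coding genes that held a 3' UTR peak, 50 (21.5%, interval 16.4 to 27.3) held a peak of another class, a share within counting error of that of exon-class genes.

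Exon-class peaks were spread over early, internal and last exons of transcripts. The annotated transcripts had a median of 10 exons and up to 106, and 97 peaks lay in transcripts of more than 20 exons. Peaks in internal exons numbered 223 (58.1%, interval 53.0 to 63.1), those in the last of several exons 66 (17.2%, interval 13.5 to 21.3), those in exon 1 or 2 short of the last exon 52 (13.5%, interval 10.3 to 17.4) and those in transcripts of 1 exon 43 (11.2%, interval 8.22 to 14.8). In exon 1 of a transcript with more exons there were 7 peaks. Peaks within 3 kb of a start were classed as promoter and so could not enter. The 244 peaks of the 3' UTR class were likewise left out. The shares by position therefore describe the exon class and not all eIF4A1 peaks. In the 269 peaks on transcripts of at least 5 exons, the median relative position (exon number over number of exons) was 0.556, with quartiles of 0.3 and 0.8.

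Over these 269 peaks, 51 lay at a relative position of up to 0.25, 74 between 0.25 and 0.5, 63 between 0.5 and 0.75 and 81 above 0.75. The median fold was 3.99, 3.97, 3.97 and 3.99 in these 4 bins. A fold of at least 5 was reached by 5, 14, 12 and 17 peaks in the same order. By position, a fold of at least 5 was reached by 18 of 66 peaks in last exons (27.3%, interval 17.0 to 39.6), 39 of 223 in internal exons (17.5%, interval 12.7 to 23.1), 7 of 52 in early exons (13.5%, interval 5.59 to 25.8) and 10 of 43 in transcripts of 1 exon (23.3%, interval 11.8 to 38.6). All 4 intervals overlap, which does not show that the shares are equal. A difference in fold by exon position was not tested.

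Peaks in several of the transcripts with most exons had little support. UBR4, a ubiquitin ligase, had a peak in exon 98 of 106 on 2 reads. HERC2 (exon 23 of 93) and HECTD4 (exons 2 and 61 of 76) had 3 reads at each peak, and LAMA3, a laminin chain (exon 20 of 75), had 2.

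**Figure D4:**
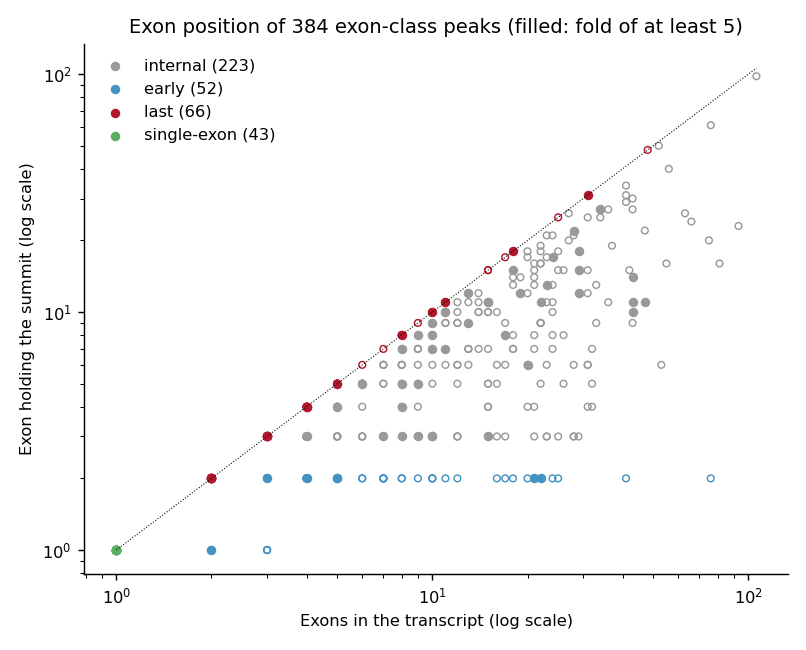
Exon holding the summit (y axis, log scale) against exons in the annotated transcript (x axis, log scale) for 384 exon-class peaks, coloured by position, with filled dots for a fold of at least 5 and a dotted diagonal marking the last exon. Peaks spread below the diagonal, with 66 in the last exon and 52 in exon 1 or 2.

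Among the gene lists compared, which differ in size, that of lipid synthesis held the most genes with an exon-class peak by count. By share, the SREBP pathway list described below was higher, at 18.2% of 11 genes. Of 43 genes of the fatty acid and sterol list, 7 held an exon-class peak (16.3%, interval 6.81 to 30.7), against a background of 1.39% of 20056 protein-coding genes. The list was written with earlier results of these data known, so its share is a description and not independent evidence. The 7 genes held 12 peaks, among them 4 in FASN, 3 in ACLY and 1 each in IDI1 (6.61, exon 5 of 5), LPIN1 (4.83), ACACA and MSMO1. ACACA encodes acetyl-CoA carboxylase, which makes malonyl-CoA for fatty acid synthase, and its exon 40 of 56 had a fold of 3.93 on 3 reads. MSMO1, the methylsterol monooxygenase of cholesterol synthesis, had the same values in exon 2 of 5. At least 1 peak past a fold of 5 was found in 4 of the 7. If the listed gene is used in place of the exon's gene, 4 genes of the list remain, and LPIN1 and IDI1 are among those that stand under other names. Counting peaks of every class inside the gene, 20 of 43 were found (46.5%), against 6.98% of protein-coding genes.

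Of 11 genes of the SREBP pathway, which senses sterols in the ER membrane and switches on lipid synthesis genes, 2 held an exon-class peak: SREBF2 (4.40, 15 reads) and NPC2, which carries cholesterol out of lysosomes (2.95, 2 reads). With all classes, 6 of 11 had a peak. The shares over all protein-coding genes are again 1.39% and 6.98%. The exon-class share of the list was 18.2% (interval 2.28 to 51.8). With 5 or more reads required only SREBF2 remains, and with a −log10 q of at least 5 no gene of the list does.

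Of 36 chromatin regulators and coregulators, 3 held 6 exon-class peaks (8.33% of genes, interval 1.75 to 22.5), against 1.39% of protein-coding genes. They included CIC and CREBBP, an acetyltransferase whose last exon, 31 of 31, had a fold of 5.70 on 5 reads. All 3 had a fold of at least 5, and 14 of the 36 had a peak in some class (38.9%), against 6.98% of protein-coding genes. Of 32 genes of the extracellular matrix and its receptors, 3 held an exon-class peak (9.38%, interval 1.98 to 25.0), and 13 had a peak in some class (40.6%). Both lists were chosen with earlier results of these data known, so the shares are given as values only. Among the 3 matrix genes were the basement membrane chains LAMA3 (2.99) and COL4A2 (2.99 in exon 48 of 48). The LAMA3 and COL4A2 peaks rested on 2 reads each.

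Among cytoskeletal genes, 2 of 30 actin and spectrin genes held an exon-class peak (6.67%, interval 0.818 to 22.1), MYH10 and its relative MYH14 (3.99, 3 reads). Of 31 microtubule motors and adaptors, BICD2, which links dynein to cargo, was the only one (3.23%, interval 0.0816 to 16.7). Its fold was 4.67 on 4 reads. Epithelial adhesion genes had 2 of 29 (6.90%, interval 0.846 to 22.8). These were JUP (4.73, 4 reads), encoding plakoglobin of desmosomes and adherens junctions, and TJP1 (3.68, 3 reads), a scaffold of tight junctions. The background of 1.39% of protein-coding genes lies within each interval. Peaks of any class lay in 8, 7 and 6 genes of these lists (26.7%, 22.6% and 20.7%), against 6.98% of protein-coding genes.

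Of the translation machinery, EIF4G3, a scaffold subunit of eIF4F, was the only one of 16 eIF4F subunits and partners with an exon-class peak (4.91, 4 reads, exon 9 of 33). None was found in 37 other initiation factors, 12 elongation and termination factors or 79 cytosolic ribosomal proteins. Counts of 0 leave room for shares of up to 9.49%, 26.5% and 4.56% in these lists (upper 95% limits). Peaks of all classes lay in 4, 1 and 5 genes of the 3 lists (10.8%, 8.33% and 6.33%), against 6.98% of protein-coding genes. ER stress genes had 1 of 21, the sensor ATF6 (4.67, 4 reads), and glycolysis and hypoxia genes 1 of 20, PGAM1, a phosphoglycerate mutase (5.73, 5 reads, exon 2 of 4). None was found among 40 growth and survival genes, 33 splicing factors or 32 chaperonin and proteasome genes, with upper limits of 8.81%, 10.6% and 10.9%. The background of 1.39% lies below each of these limits, so a lower share was not detectable in lists of this size.

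In the large families named by symbol, 2 of 386 solute carriers held an exon-class peak (0.518%, interval 0.0628 to 1.86), SLC25A28, a mitochondrial iron carrier (5.51), and SLC38A12 (4.91). Of 517 zinc finger genes with a ZNF symbol, 5 did (0.967%, interval 0.315 to 2.24): ZNF335 (5.92), ZNF358 (4.19), ZNF467 (3.99), ZNF236 (3.93) and ZNF805 (3.93). The background of 1.39% lies within both intervals.

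Of 8 markers of prostate epithelial cancer cells, JUP was the only one with an exon-class peak, and 2 had a peak in any class. Over all protein-coding genes the shares are 1.39% and 6.98%. None of 10 androgen receptor and luminal prostate markers and none of 11 blood and stromal markers had an exon-class peak. A peak over control is not a level of expression, so these counts do not check the identity of the cells, and RNA abundance was not measured in the tables used here.

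**Figure D5:**
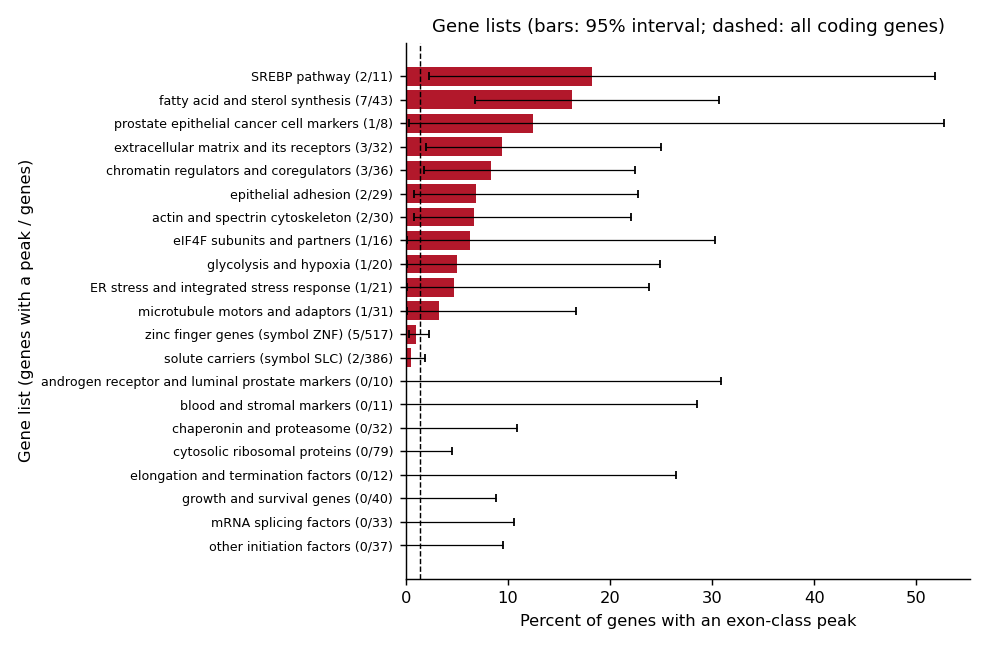
Percent of each list's genes with an exon-class peak (x axis) for 21 lists, with genes with a peak and genes in the list beside each name, exact 95% binomial intervals as error bars, and a dashed line at 1.39%, the share of all protein-coding genes. The fatty acid and sterol list has 7 of 43 genes, and 8 lists have 0.

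A further 64 exon-class peaks lay on transcripts for which the annotation gives no gene ID. These peaks lay on 60 transcripts. For 43 of the 64 peaks the transcript had 1 exon, and 42 of the 64 summits lay in a RefSeq pseudogene (65.6%, interval 52.7 to 77.1). Processed pseudogenes are intronless copies of mRNAs inserted elsewhere in the genome, and their sequence can be close to that of the parent mRNA. Together with 6 peaks on transcripts with a gene ID, 48 exon-class summits lay in a pseudogene (12.5%, interval 9.36 to 16.2). The background was 4.38% of all annotated peaks, these 48 included, and 2.35% (interval 1.65 to 3.23) outside the exon class. In the 3' UTR class it was 0.820% (interval 0.0994 to 2.93). By its definition the exon class takes any pseudogene exon away from a start, so the classes are not alike here and the shares are given as values only. The sources used here do not give the treatment of reads that match several places, so the gene of origin of each pseudogene peak is uncertain. The part of the parent mRNAs in the pseudogene peaks was not tested.

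Copies of FDPS, SCD and AKR1B1 are described as examples, chosen after the values were seen. Copies of FDPS, which encodes farnesyl diphosphate synthase of the mevalonate pathway, held 4 peaks: FDPSP1 (6.61, 7 reads), FDPSP9 (4.99, 4 reads), FDPSP8 (4.90, 4 reads) and FDPSP5 (3.93, 3 reads). FDPS itself had 2 peaks, a promoter-class peak of 5.43 on 5 reads and a 5' UTR peak of 2.94 on 2 reads. SCDP1, a copy of the stearoyl-CoA desaturase gene SCD, held peaks of 5.54 on 6 reads and 5.07 on 13 reads, and SCD itself had 3 peaks with folds of 4.56 to 4.75. Copies of the aldose reductase gene AKR1B1 held 3 peaks, 2 in AKR1B1P1 (6.89 and 5.85) and 1 in AKR1B1P2 (5.80), and AKR1B1 had 3 peaks with folds of 3.99 to 4.76. All 3 parents had their own peaks outside the exon class.

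In all, 39 peaks lay in pseudogenes whose symbol names a protein-coding parent, and these had 33 parents. A summit of some class lay inside 9 of the 33 parents (27.3%, interval 13.3 to 45.5), against a background of 6.98% of protein-coding genes. In addition to FDPS, SCD and AKR1B1 these were WBP1 (5.61), RAB1A (4.35), SDCBP (4.60), TCF3 (4.35), CYB5A (3.93) and AMD1, where the only peak (4.99) is that of the pseudogene CNN2P9 lying inside AMD1. The parents without a peak included the ribosomal protein genes RPL38, RPL17 and RPS25, whose copies RPL38P2, RPL17P34 and RPS25P2 had folds of 5.62, 4.91 and 2.99. The 33 parents were picked through peaks in their copies, and RNA abundance was not measured. Their share and that of all protein-coding genes are therefore given as values only.

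The other 22 peaks on transcripts without a gene ID lay in long noncoding RNAs, in coding genes or, in 7 cases, where no RefSeq gene was found. These 7 include a peak on a contig outside the placed chromosomes. Both exon-class peaks of LINC03061 are on 1 transcript of 1 exon, with folds of 8.51 and 4.35 on 15 and 11 reads. Among long noncoding RNAs with a gene ID, OLMALINC and MIR4435-2HG (5.32, 9 reads, exon 2 of 2) had a fold of at least 5.

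Members of families of near-identical genes are uncertain for the same reason. SRGAP2B, SRGAP2 and SRGAP2D each had 1 peak in exon 3, with folds of 6.98, 5.43 and 3.80. Copies of PKD1, NPIPB13, NBPF14 and NOMO1 had folds of 2.95 to 3.99 on 2 or 3 reads.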

How the data were processed

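RNA immunoprecipitation and sequencing was performed on 1 eIF4A1 and 1 IgG sample of DU145 cells. The submitters' processing notes name the aligners BWA and STAR, the peak caller MACS2, the annotator ChIPseeker, and also DESeq2, Picard and Salmon, with the builds hg38, GRCh38 and hg19, and give no version, role or setting. The peak track deposited by the authors holds, per its narrowPeak layout, a score, the fold as a linear ratio, and −log10 p and −log10 q. The annotated table deposited by the authors holds summits, −log10 q, gene IDs and distances. Both files were joined by peak name: 1919 of 1920 peaks matched with equal summits and −log10 q.

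Summit reads were recovered by solving (reads + 1)/(background + 1) = fold together with the Poisson tail for p. For the exon class every solution lay within 0.000295 of a whole number, and 2 other peaks were solved on whole numbers only. The solver was tested on simulated data. The peak names carry the word filtered, and the filter is not described in the sources used here. Library totals are not given in the sources used here, so depth is stated per peak.

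Genes are those of the exon annotation's own gene ID, a choice made after the files were seen, with symbols and spans from RefSeq GRCh38.p14. Named are the 20 highest folds, genes with 2 or more peaks, up to 4 members per list by fold, the peaks with most reads and the highest exon totals, except some that are not reported here. Others (RHOA, ARCN1, RAB1A, MIR4435-2HG, the copies and pseudogenes) were chosen after their values were seen. The members and the 21 lists were chosen with earlier results of these data known, and 2 list symbols were not found in RefSeq. No test was run, since each antibody has 1 library. Intervals are exact Clopper-Pearson at 95%. Python 3.11.15, SciPy 1.17.1 and pandas 2.3.3 were used.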

Additional observations from a re-analysis of the deposited data

How the results depend on the processing

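The counts fell as peaks were defined more strictly, by construction. From 384 exon-class peaks, 104 remained when −log10 q had to reach 5, 74 when the fold had to reach 5, 88 when 5 reads were required and 23 when no background was allowed below 1 control read (0.880 on this scale). The genes listed for them fell from 352 to 103, 68, 79 and 21 in the same order. Merging near peaks, leaving out contigs or pseudogenes, and other gene assignments moved these counts by under 1.5 times. The median fold of 3.99 was 4.91 at the stricter q and 5.71 with at least 5 reads, and the share past the fold limit was 40.6% at a fold of 4 and 7.55% at 6. With at least 5 reads, last exons had 21.6%, internal exons 52.3%, early exons 9.09% and transcripts of 1 exon 17.0%, and the exon class 17.2% of all peaks. By bases, internal exons had 51.9%. The cause of these shifts in share was not tested. The median relative position over all 384 peaks was 0.717, against 0.556 on transcripts of at least 5 exons, which leaves out the shortest transcripts. The share of summits inside the gene was 73.2% for the listed gene over 384 peaks and 99.4% for the exon's gene over the 320 that have one, where the listed gene gave 83.8%. Genes of the lists with a peak went from 23 to 8 at the stricter q and 11 with at least 5 reads. Of 76 values of single lists under other settings, 22 moved by over 1.5 times or to or from 0. The exon's gene ID and the setting without pseudogenes were added after the data were seen, as was the listed gene for the lists. Base composition, motifs and exon make-up by RefSeq were not run. No paired analysis was possible because only 1 library stands for each antibody, and no replicate could be left out.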

Other observations

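Genes that act on mRNA after transcription were present in the exon class. They were chosen after their values were seen and are given as values only. YTHDF1, a cytoplasmic reader of methylated adenosine in mRNA, had a fold of 6.33 on 8 reads in exon 4 of 5. ELAVL1, the AU-rich element binding protein HuR, had 6.14 on 6 reads in exon 5 of 6. TNRC6B had 2 peaks of lower fold, given above.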
